A study of Mus musculus with 22 samples.

Results

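Methylation levels were examined at 7 imprinted genes that regulate growth, namely Grb10, Igf2r, Airn, Kcnq1, Kcnq1ot1, Cdkn1c and Plagl1, in 22 mouse forebrains collected at E10.5. CpGs were taken from 5 kb upstream to 1 kb past each gene (RefSeq annotation, GRCm38). A CpG counted in an embryo from a coverage of 10 reads, and it was kept with values in 5 or more samples of each condition. This gave 323 CpGs of the 592579 kept on all autosomes. Of these, 132 were no more than 5 kb from a transcription start site of their gene and had a mean level of 30 to 70% in control samples, the level that a region methylated on 1 of its 2 alleles gives. They are called intermediate CpGs here, and 6358 CpGs of the whole data set met the same rule at any gene. The other CpGs of each gene are called the remaining CpGs. The control level chose the intermediate CpGs, so it is a description, and the comparison with the exposed embryos is the measurement.

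All samples were forebrains of wild-type C57BL/6 embryos, 1 embryo per library. The 6 control embryos came from females injected subcutaneously with saline, and the 16 EtOH-exposed embryos from females injected with ethanol at the 8-cell stage. The study asks what an exposure during the epigenetic reprogramming of the early embryo leaves behind in the developing brain. The labels give neither sex nor litter. By the study's methods the embryos came from fewer litters than there were embryos in each group, so both groups hold littermates, and p-values treat embryos of 1 litter as independent. The forebrains were whole tissue, in which a change in the mix of cells and a change of methylation within cells cannot be told apart, and no RNA was measured that would allow the tissue label to be checked against marker genes.

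Imprinted genes are expressed from 1 parental allele. The choice is set by methylation that differs between egg and sperm and is kept through the demethylation of the early embryo, when most other methylation is lost. Grb10 encodes an adaptor protein that binds the insulin and IGF1 receptors and restrains growth. Its germline region lies inside the gene and carries maternal methylation. Igf2r encodes the receptor that removes IGF2 from the cell surface for degradation. The antisense transcript Airn starts inside an intron of Igf2r, and the maternally methylated germline region of the pair is the promoter of Airn. Kcnq1 encodes a voltage-gated potassium channel subunit. The antisense transcript Kcnq1ot1 starts within an intron of Kcnq1 and silences neighbouring genes on the paternal chromosome when its promoter is unmethylated. One of those genes is Cdkn1c, an inhibitor of cyclin-dependent kinases whose own paternal methylation is acquired after fertilisation and is therefore secondary. Plagl1 encodes a zinc finger transcription factor that slows cell proliferation, and its promoter is a maternally methylated germline region.

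The intermediate CpGs fell into 5 regions. Grb10 (chr11:11930499-12037428, minus strand) had 44 of its 122 kept CpGs in its region, all in intron 1 between positions 12025639 and 12026881. Airn (chr17:12741311-12859884, plus strand) had 9 of 24 at positions 12742236 to 12742368, in intron 1 of Airn and intron 2 of Igf2r. Igf2r itself (chr17:12682406-12769706, minus strand) had 29 kept CpGs, 24 of them shared with Airn, and 0 intermediate CpGs near its own start site. Kcnq1ot1 (chr7:143213111-143296547, minus strand) had 6 of 7 at positions 143295375 to 143295443, in its exon 1 and in intron 11 of Kcnq1. Kcnq1 (chr7:143106877-143427050, plus strand) had 75 kept CpGs and 0 intermediate CpGs near its own start site. Cdkn1c (chr7:143458339-143461059, minus strand) had 38 of 60, from coding exon 2 to 5 kb upstream, and Plagl1 (chr10:13090832-13131694, plus strand) had 35 of 37 around exon 1.

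Because the assay cuts DNA with MspI at CCGG, the CpGs of a region were read on a few short restriction fragments, and these fragments are the units on which the levels below turn. The following 9 are shown because they carry the germline levels, large differences or the contrasts between neighbours. Plagl1 fragments 1 and 2 lie in an untranslated exon and are given by position only. The sequences are those of the plus strand of GRCm38 from 1 MspI site to the next, and capitals mark the CpGs.
Airn fragment 1, chr17:12742236-12742375: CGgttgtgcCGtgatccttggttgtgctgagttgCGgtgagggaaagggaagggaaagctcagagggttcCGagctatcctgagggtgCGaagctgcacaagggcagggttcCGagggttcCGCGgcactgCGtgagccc
Grb10 fragment 1, chr11:12025628-12025802: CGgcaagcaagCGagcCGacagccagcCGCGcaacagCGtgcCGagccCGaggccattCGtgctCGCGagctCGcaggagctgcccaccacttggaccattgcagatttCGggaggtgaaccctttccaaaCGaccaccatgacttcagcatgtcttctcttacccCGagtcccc
Grb10 fragment 2, chr11:12026185-12026255: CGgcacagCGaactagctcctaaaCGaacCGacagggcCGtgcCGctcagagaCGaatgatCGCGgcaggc
Grb10 fragment 4, chr11:12026767-12026879: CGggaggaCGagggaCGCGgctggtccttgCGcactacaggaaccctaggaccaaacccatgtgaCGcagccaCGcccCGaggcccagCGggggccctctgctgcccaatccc
Kcnq1ot1 fragment 1, chr7:143295375-143295441: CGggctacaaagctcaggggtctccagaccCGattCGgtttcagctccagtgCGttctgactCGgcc
Kcnq1 fragment 5, chr7:143389218-143389328: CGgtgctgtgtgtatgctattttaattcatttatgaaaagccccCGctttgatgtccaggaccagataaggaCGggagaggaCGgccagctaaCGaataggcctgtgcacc
Plagl1 fragment 3, chr10:13091040-13091110: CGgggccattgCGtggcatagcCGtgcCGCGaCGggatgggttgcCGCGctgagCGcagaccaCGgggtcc
Cdkn1c fragment 2, chr7:143460063-143460140: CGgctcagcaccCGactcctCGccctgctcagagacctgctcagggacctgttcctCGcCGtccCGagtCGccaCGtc
Cdkn1c fragment 3, chr7:143460237-143460335: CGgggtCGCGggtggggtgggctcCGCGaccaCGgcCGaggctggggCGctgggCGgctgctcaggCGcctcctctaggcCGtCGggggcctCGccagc

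The letters TGCCGC, the core of the motif that the imprint-keeping zinc finger protein ZFP57 recognises when methylated, were searched on both strands. They occurred in 11.6% of 31363 autosomal promoter windows of 300 bp. Within the fragments themselves, Grb10 fragment 2 and Plagl1 fragment 3 each held 2 matches and Airn fragment 1 held 1. In 300 bp windows centred on the fragments, there were 3 at Airn fragment 1, 4 at Grb10 fragment 2, 2 at Grb10 fragment 3, 3 at Plagl1 fragment 3, 1 each at Plagl1 fragments 1 and 2 and at Kcnq1 fragment 4, and 0 at the other 4 Kcnq1 fragments, at Grb10 fragments 1 and 4, at Kcnq1ot1 fragment 1 and at each of the 5 Cdkn1c fragments. Windows of neighbouring fragments overlap, so 1 match can be listed at more than 1 fragment. The 2 at Grb10 fragment 3 are the 2 that lie inside fragment 2. A match of these letters is a description and not a binding site.

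The libraries differed in depth and in composition. The files held 68.1 to 132 M calls per control sample and 89.2 to 216 M per EtOH-exposed sample, summed over cytosines of CpGs. Over 39343 tiles of 100 bp that were unmethylated in the data set (median level under 1%), the level was 0.672 to 1.52% in the controls. With a new group opened where the next library was more than 1.3 times higher, 7 EtOH-exposed libraries (7, 8, 10, 11, 13, 15 and 16) fell in 1 group with all controls. Within this group, controls 3 to 6 lay at 0.672 to 0.684% and controls 2 and 1 at 1.499 and 1.52%. The 7 EtOH-exposed libraries lay between these levels, at 0.834 to 1.38%, and the rule joined the controls only through them. No control had the level of these 7, so comparing them with the controls does not match libraries by level. A further 6 (1, 2, 3, 9, 12 and 14) lay below this group, at 0.260 to 0.313%, and 3 (4, 5 and 6) lay above it, at 2.41 to 2.54%. The lower and the upper group held no control, so in them the library and the exposure cannot be told apart, and a comparison of the 7 with the 6 controls is given beside the pooled differences of regions, fragments and named tiles. In addition, the coverage of 17770 highly methylated CpGs relative to 126570 unmethylated CpGs, in log2 against the control mean, was −0.56 to 0.21 in controls and −2.18 to −0.00 in EtOH-exposed libraries. The means differed by −0.98 (two-sided exact permutation test, p = 0.0107), and 9 of 16 EtOH-exposed libraries lay below all controls. Embryos 8 and 11 were among these 9, at −1.52 and −0.80. The controls' range named below is therefore that of the level at unmethylated tiles alone.

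None of the 5 regions passed the test over embryos, and the levels are drawn in the plot of each embryo's mean level by region. In all 5 the EtOH-exposed mean was below the control mean, with differences of −12.2 to −1.22 percentage points, and 0 of 5 had an unadjusted p under 0.05 in the two-sided exact permutation test. Among all 853 genes with at least 3 intermediate CpGs, 22.7% were lower in EtOH-exposed embryos at this level and 0.352% were higher, and 1 had an adjusted p under 0.05. By single CpGs, the mean was lower in EtOH-exposed embryos at 44 of 44 CpGs of Grb10, 9 of 9 of Airn, 6 of 6 of Kcnq1ot1, 34 of 35 of Plagl1 and 21 of 38 of Cdkn1c, beside 4949 of all 6358 intermediate CpGs. CpGs of 1 fragment share their reads and are not independent. The read calls behind 1 embryo's value ran from 1329 to 9660 at Grb10, 215 to 5236 at Airn, 50 to 1612 at Kcnq1ot1, 548 to 8029 at Cdkn1c and 155 to 11067 at Plagl1. Within the libraries in the controls' range, the 5 differences were positive. With 1 more library left out, chosen after the values had been seen, the differences turned to −0.777 points at Airn and −0.799 at Plagl1 without control 6 and to −0.919 at Kcnq1ot1 without control 1. Those of Grb10 and Cdkn1c stayed positive without any 1 of the 13 libraries.

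**Figure D1:**
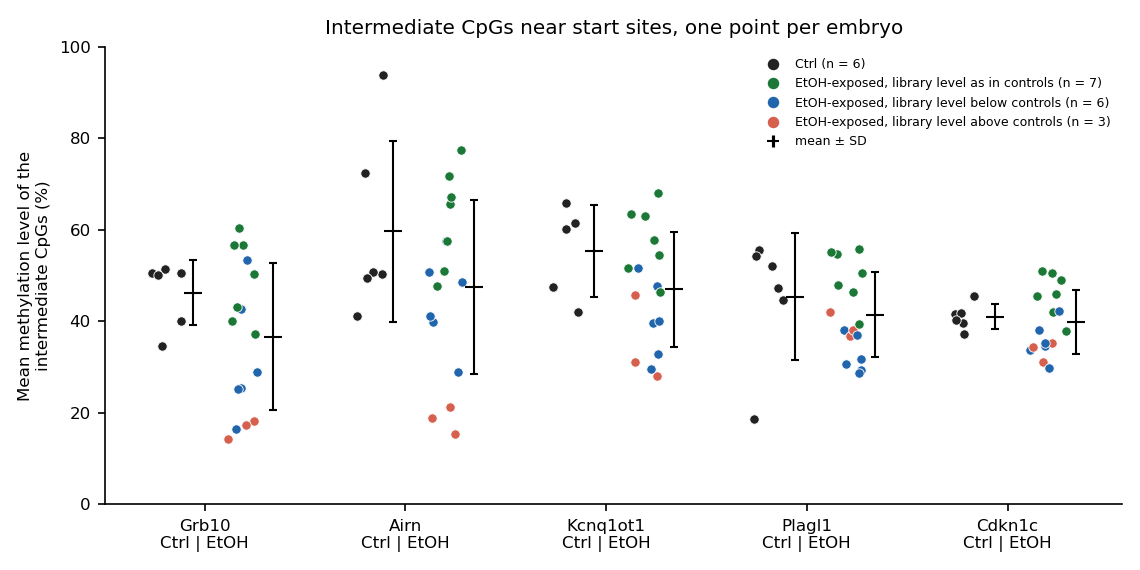
Mean methylation level (%) of the intermediate CpGs of each region, 1 point per embryo, with group means ± SD beside the points; colours give the library group by the level at unmethylated tiles. The 3 EtOH-exposed embryos with library levels above the controls lie at 14.3 to 18.2% at Grb10 and 15.3 to 21.3% at Airn, while the 7 in the controls' range lie at 37.2 to 60.4% and 47.8 to 77.6%.

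At Grb10, the level of the germline region was 51.3, 40.1, 50.5, 50.6, 50.1 and 34.7% in control embryos 1 to 6. In the 16 EtOH-exposed embryos it was 14.3% at the lowest, 38.6% at the median and 60.4% at the highest. The groups overlapped, with 7 EtOH-exposed embryos under all controls and 4 over them. The means were 46.2% ± 7.07 (SD, n = 6) and 36.6% ± 16.1 (n = 16), a difference of −9.59 percentage points with a 95% interval of −23.9 to 4.80 (two-sided exact permutation test, p = 0.177, adjusted p = 0.363 over 853 genes). Libraries in the controls' range differed by 2.99 points in the other direction (p = 0.515 by the same exact test), those below had a mean of 32%, and those above 16.6%. Control embryos 2 and 6 had values at 20 and 25 of the 44 CpGs.

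The 4 MspI fragments of Grb10 did not carry the same level. Fragment 1, the one farthest from the start site of the 4 and shown in full above, was at 63.2, 35.7, 49.7, 38.3 and 27.8% in control embryos 1, 3, 4, 5 and 6. In 15 EtOH-exposed embryos it ran from 0.846 through a median of 23.5 to 61.0%, with 8 below the lowest control. The means were 42.9% ± 13.8 (n = 5) and 24.6% ± 21.2 (n = 15), a difference of −18.4 points (two-sided exact permutation test, p = 0.0884, adjusted p = 0.382). Fragment 1 was at 0.846 to 4.47% in EtOH-exposed embryos 4, 5, 6, 9 and 14, so nearly no methylated read was seen there. In those same embryos, fragment 2, separated from it by 382 bp, was at 22.7 to 41.3%. Fragment 4 had the narrowest control range, 43.9 to 49.5%, and of the 16 EtOH-exposed embryos 10 lay below it and 4 above it. The means of fragment 4 were 46.4% ± 2.30 (n = 5) and 34.3% ± 16.7 (n = 16; exact permutation test, p = 0.125). Fragments 2 and 3 differed by −2.63 and −10.6 points (exact permutation tests, p = 0.783 and 0.150). Within the libraries in the controls' range, the differences of fragments 1 to 4 were −4.84, 13.4, −1.65 and −0.246 points, none with p under 0.05 in the exact test. With 1 of these libraries left out, chosen after the values had been seen, the differences of fragments 1, 3 and 4 turned. They were 0.219 points for fragment 1 without control 1, 3.64 for fragment 3 without EtOH-exposed embryo 8 and 2.30 for fragment 4 without embryo 16. Fragment 2 went from 13.4 points (exact permutation test, p = 0.158) to 19.2 without embryo 8 (exact permutation test, unadjusted p = 0.00866).

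Over all 19 fragments of the member genes at 30 to 70% in controls, 2 were lower in EtOH-exposed embryos at an unadjusted p under 0.05, namely Plagl1 fragment 1 and Kcnq1 fragment 5, and 0 were higher. Of all 1830 such fragments tested, 14.3% were lower and 0.437% higher. No fragment of the members passed after adjustment, where the smallest adjusted p of any fragment was 0.266. The fragments were introduced after the levels of single CpGs had been seen.

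**Figure D2:**
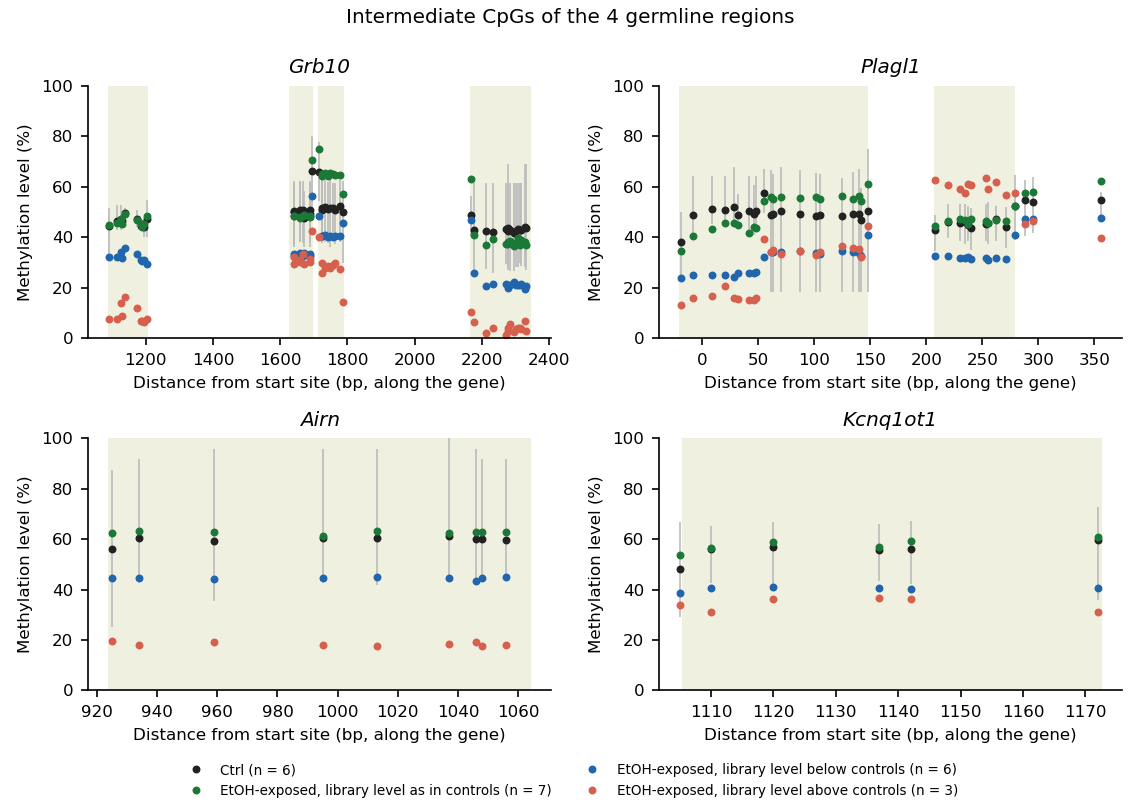
Methylation level (%) of each intermediate CpG against its distance from the start site (bp, along the gene) at Grb10, Plagl1, Airn and Kcnq1ot1; points are means of controls and of the 3 groups of EtOH-exposed libraries, grey bars the range of the controls, and shaded bands the MspI fragments. CpGs of 1 fragment lie at nearly the same level and the level steps between fragments. At Plagl1 the EtOH-exposed libraries above the controls' range lie at 16.5% on average in fragment 1 and at 60.1% in fragment 3.

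Airn fragment 1 held 8 CpGs between its ends and, with the site at its edge, all 9 intermediate CpGs of the Airn and Igf2r pair. The region was at 72.5, 94.0, 50.3, 50.7, 49.6 and 41.2% in control embryos 1 to 6, the widest control range of the 5 regions. In EtOH-exposed embryos it was 15.3% at the lowest, 49.7% at the median and 77.6% at the highest, with 6 of 16 below all controls and 0 above. The means were 59.7% ± 19.8 (n = 6) and 47.5% ± 19 (n = 16), a difference of −12.2 points with a 95% interval of −31.4 to 7.14 (two-sided exact permutation test, p = 0.201, adjusted p = 0.384). Leaving out control 2 gave −5.31 points. The libraries in the controls' range differed by 2.93 points (exact permutation test, p = 0.744), and the means of the libraries below and above it were 44.5 and 18.5%.

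Igf2r was measured outside that region at 20 CpGs. Their mean level was 32.3, 24.6, 34.0, 35.5, 34.5 and 77.3% in control embryos 1 to 6, the last from 5 of the 20 CpGs. EtOH-exposed embryos lay at 20.3 to 37.2% with a median of 30.6%. The difference was −9.99 points (two-sided exact permutation test, p = 0.0448, adjusted p = 0.395 over 21125 genes), and −2.47 points without control 6, with p = 0.325 in the same exact test. In the libraries of the controls' range it was −7.89 points with p = 0.321 in the exact test, and −0.375 points without control 6. Of these 20 CpGs, 15 are also the remaining CpGs of Airn, so both results share them. Among the genes tested at remaining CpGs, 12.2% were lower in EtOH-exposed embryos at an unadjusted p under 0.05 and 0.180% higher, and Igf2r and Cdkn1c were the 2 of 7 members. In the body of Igf2r, the tile chr17:12698401-12698500 in intron 33 was at 82.2, 80.9, 85.1, 91.1, 86.6 and 92.7% in the controls. The 11 EtOH-exposed embryos with a value there lay at 58.1 to 88.6% with a median of 80.4%, 7 of them below all controls. The mean of this tile was 86.4% ± 4.74 (n = 6) in controls and 74.1% ± 11.8 (n = 11) in EtOH-exposed embryos (two-sided exact permutation test, p = 0.0302, adjusted p = 1 over all tiles). In the 6 EtOH-exposed libraries of the controls' range with a value, the mean of this tile differed by −15 points (exact permutation test, p = 0.00649).

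The tile of the Airn promoter region, chr17:12742301-12742400, was at 54.7% ± 9.39 (n = 6) in controls and at 47.5% ± 18.8 (n = 16) in EtOH-exposed embryos (two-sided exact permutation test, p = 0.385), and the libraries in the controls' range differed by 7.82 points in the other direction. A tile 10039 bp from the start of Airn and in intron 1 of Igf2r, chr17:12751301-12751400, was also at intermediate level, with 39.9% ± 3.10 (n = 5) in controls and 38.2% ± 7.42 (n = 16). This second tile differed by −1.72 points (exact permutation test, p = 0.624), and by −0.442 points in the libraries of the controls' range. Over the 15 remaining CpGs of Airn, the mean level was 15.5% ± 1.41 (n = 5) and 14.1% ± 2.91 (n = 16), a difference of −1.38 points (exact permutation test, p = 0.325), with −0.262 points in the libraries of the controls' range and 0.152 there without control 2.

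Kcnq1ot1 was covered by a single MspI fragment of 67 bp in its exon 1, printed above. The 6 intermediate CpGs were at 42.0, 65.8, 60.2, 61.4 and 47.5% in control embryos 1 to 5, and control 6 had no value. EtOH-exposed embryos lay at 28.0% at the lowest, 47.1% at the median and 68.0% at the highest, with 6 below all controls and 1 above. The means were 55.4% ± 10.1 (n = 5) and 47.0% ± 12.7 (n = 16), a difference of −8.43 points with a 95% interval of −21.5 to 4.66 (two-sided exact permutation test, p = 0.192, adjusted p = 0.381). The libraries in the controls' range differed by 2.43 points (exact permutation test, p = 0.629), and the means below and above it were 40.3 and 35.0%. A single remaining CpG of Kcnq1ot1 was at 18.1% ± 6.77 (n = 5) and 8.87% ± 9.80 (n = 14; exact permutation test, p = 0.0702), and in the libraries of the controls' range its difference was −13 points (exact permutation test, p = 0.0159).

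Along Kcnq1, the host gene, 69 remaining CpGs had a mean level of 36.4, 26.8, 39.9, 39.9, 38.9 and 40.4% in control embryos 1 to 6. EtOH-exposed embryos lay between 27.5 and 39.3% with a median of 35.1%, within the range of the controls. The means were 37.1% ± 5.23 (n = 6) and 33.7% ± 3.74 (n = 16; two-sided exact permutation test, p = 0.109, adjusted p = 0.497). Without control 2, whose value rests apart from the others, the difference was −5.40 points with p = 0.00604 in the same exact test. Libraries in the controls' range differed by −0.872 points (exact permutation test, p = 0.757), and by −2.92 points without control 2 (exact permutation test, p = 0.0126). Control 2 was left out after the values had been seen, and the p-values without it are not adjusted.

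Among the 5 fragments of the Kcnq1 body, the largest difference lay in intron 15, at fragment 5, 282019 bp from the start site. It was at 48.9, 43.0, 56.1, 56.8 and 56.7% in control embryos 1, 3, 4, 5 and 6. In 15 EtOH-exposed embryos it ran from 14.1 through a median of 30.9 to 70.4%, with 11 below all controls and 1 above. The means were 52.3% ± 6.15 (n = 5) and 35.6% ± 14.8 (n = 15), a difference of −16.7 points (two-sided exact permutation test, p = 0.0262, adjusted p = 0.307 over 1830 fragments). Within the libraries in the controls' range, the difference of this fragment was −16.7 points as well (exact permutation test, p = 0.0240), and p ran from 0.0108 to 0.0545 with 1 of these libraries left out at a time. Of the other 4 fragments of the gene body, fragment 1 had a control range of 6.48 to 67.8% and a difference of 12.9 points (exact permutation test, p = 0.0965), and fragments 2, 3 and 4 differed by −0.402, −2.10 and −7.09 points, none with p under 0.05 in the exact test. In the libraries of the controls' range, fragments 1 to 4 differed by 16.1, 4.85, 1.48 and −1.68 points. With 1 of these libraries left out, fragments 1 and 2 gave 6.96 and 1.47 points without control 2, and fragments 3 and 4 gave −1.10 and −0.642 without control 6.

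Cdkn1c, the cyclin-dependent kinase inhibitor with secondary methylation, had the narrowest control range of the 5 regions. Its 38 intermediate CpGs were at 41.6, 39.6, 41.9, 45.7, 40.2 and 37.3% in control embryos 1 to 6. EtOH-exposed embryos lay at 29.8% at the lowest, 38.1% at the median and 51.1% at the highest, with 7 below all controls and 4 above. The means were 41.0% ± 2.8 (n = 6) and 39.8% ± 6.96 (n = 16), a difference of −1.22 points with a 95% interval of −7.40 to 4.98 (two-sided exact permutation test, p = 0.684, adjusted p = 0.785). Libraries in the controls' range had a mean of 46.1%, which was 5.02 points above the controls (exact permutation test, p = 0.0484, and 0.00866 to 0.0947 with 1 of these libraries left out at a time), and those below and above it had means of 35.7 and 33.6%.

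The remaining 22 CpGs of Cdkn1c, most of them in intron 2 past the coding exon, were at 19.2, 18.8, 16.4, 24.7, 18.9 and 19.7% in control embryos 1 to 6. EtOH-exposed embryos lay at 8.75% at the lowest, 14.1% at the median and 24.1% at the highest, and 11 of 16 lay below all controls. The means were 19.6% ± 2.73 (n = 6) and 14.3% ± 3.87 (n = 16), a difference of −5.30 points with a 95% interval of −8.89 to −1.66 (two-sided exact permutation test, p = 0.00681, adjusted p = 0.289 over 21125 genes). In the libraries of the controls' range the difference was −2.83 points with p = 0.159 in the same exact test. It was −4.06 points without EtOH-exposed embryo 10 (exact permutation test, p = 0.0108) and −1.82 without control 4 (exact permutation test, p = 0.337). Over all libraries, p was not under 0.05 with a minimum of 5 reads (−2.77 points) or 20 reads (−0.308), with a range of 40 to 60% (−1.64) or within 2 kb (−3.41). In the tile chr7:143459401-143459500 of intron 2, controls were at 18.8% ± 4.05 (n = 6) and EtOH-exposed embryos at 10.8% ± 4.24 (n = 16; exact permutation test, p = 0.000938, adjusted p = 1 over all tiles). That tile differed by −6.41 points in the libraries of the controls' range (exact permutation test, p = 0.0216).

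In coding exon 2 of Cdkn1c, the sign of the difference changed between neighbouring fragments 96 bp apart. Fragment 2 was at 38.1, 35.6, 27.5, 39.0 and 29.0% in control embryos 1 to 5 and at 31.3 to 56.2% in EtOH-exposed embryos, with a median of 38.1%. Fragment 3 was at 45.9, 33.8, 44.8, 39.0 and 33.9% in the same controls and at 18.2 to 47.9% in EtOH-exposed embryos, with a median of 31.7%. Fragment 2 had means of 33.9% ± 5.28 (n = 5) and 38.6% ± 6.82 (n = 16), and fragment 3 had means of 39.5% ± 5.76 (n = 5) and 32.1% ± 8.75 (n = 16). Neither fragment alone had p under 0.05 (exact permutation tests, p = 0.170 and 0.0951). Fragment 2 differed from the controls by 10.2 points in the libraries of the controls' range (exact permutation test, unadjusted p = 0.00758), by −0.117 in those below and by 1.69 in those above. Fragment 3 differed by −0.334, −14.8 and −8.90 points in the same 3 groups, the first turning to 1.82 without EtOH-exposed embryo 8. Taken within each embryo, fragment 3 minus fragment 2 was 5.64 points ± 7.57 (n = 5) in controls and −6.46 points ± 5.35 (n = 16) in EtOH-exposed embryos. It was negative in 15 of 16 EtOH-exposed embryos and in 1 of 5 controls, and 14 EtOH-exposed embryos lay below the lowest control. The groups differed by −12.1 points (two-sided exact permutation test, p = 0.00059, adjusted p = 0.0734 over 249 pairs of fragments at most 1000 bp apart). Against the controls, the contrast differed by −10.5 points in the libraries of the controls' range (exact permutation test, p = 0.0202, and 0.0576 without control 3), by −14.7 points in those below and by −10.6 points in those above. Of these 249 pairs, 4.42% were lower and 7.63% higher in EtOH-exposed embryos at an unadjusted p under 0.05, and this was the 1 of the 13 pairs of the members.

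**Figure D3:**
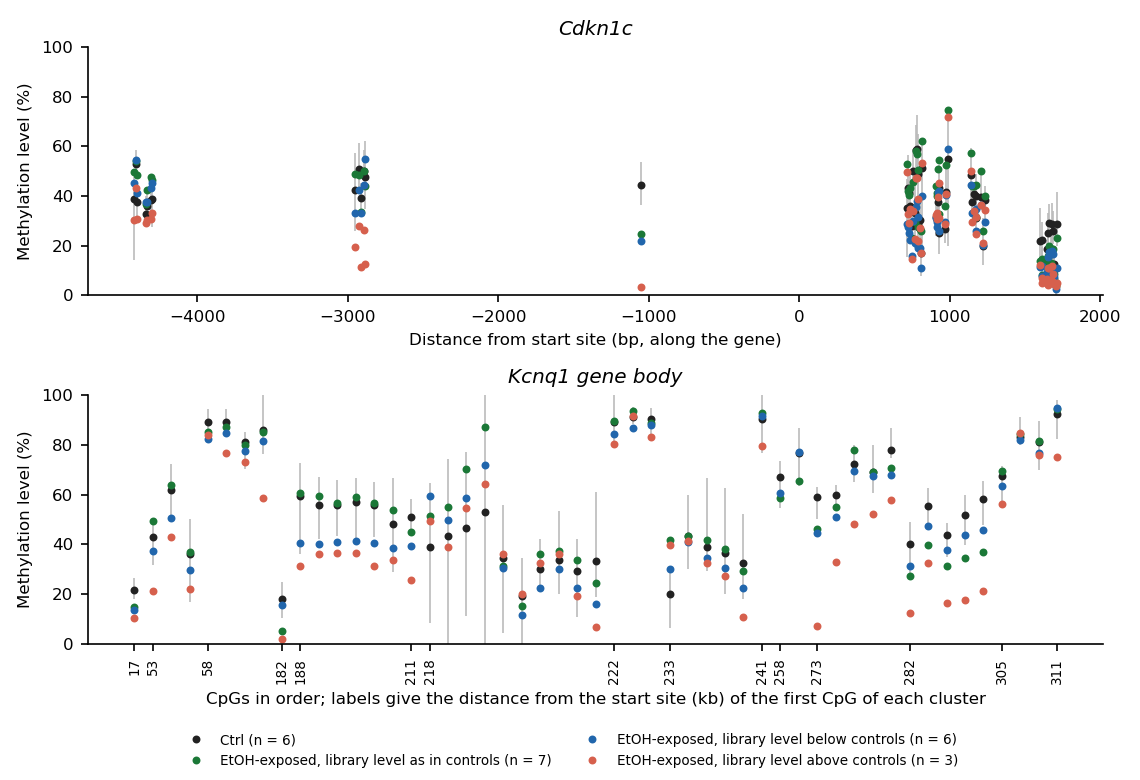
Methylation level (%) of each CpG, against the distance from the start site (bp) at Cdkn1c and in order along the gene body of Kcnq1, where tick labels give the distance (kb) of the first CpG of each cluster; points are group means and grey bars the range of the controls. At Cdkn1c the levels of neighbouring CpGs scatter, and the CpGs farthest downstream lie below the control mean in all 3 groups of EtOH-exposed libraries. At 282 kb in Kcnq1 the EtOH-exposed libraries in the controls' range lie below the controls as well.

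The other fragments of Cdkn1c showed no difference past the test. Fragment 1 in the same exon was at 34.8% ± 4.63 (n = 5) in controls and 34.6% ± 7.16 (n = 16) in EtOH-exposed embryos. Upstream of the gene, fragment 4 was at 46.6% ± 4.77 (n = 5) and 38.3% ± 12.4 (n = 16), and fragment 5 at 39.4% ± 4.03 (n = 5) and 42.4% ± 7.23 (n = 15). In the libraries of the controls' range, fragments 1, 4 and 5 differed by 5.26, −2.68 and 6.56 points (exact permutation tests, p = 0.141, 0.604 and 0.101). Without EtOH-exposed embryo 16, left out after the values had been seen, these were 6.94, −0.635 and 9.0 points (exact permutation tests, unadjusted p = 0.0368, 0.909 and 0.00433). The tile chr7:143460001-143460100, which lies in the same exon and shares CpGs with fragment 2, was at 36.9% ± 6.62 (n = 5) in controls and 47.6% ± 6.88 (n = 16) in EtOH-exposed embryos, with 13 of 16 above all controls (exact permutation test, p = 0.00545, adjusted p = 1). That tile differed by 15.7 points in the libraries of the controls' range.

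Plagl1 had 35 intermediate CpGs at positions 13090813 to 13091189, around its start site. Their mean level was 55.6, 54.4, 52.1, 47.2, 44.7 and 18.6% in control embryos 1 to 6, the last from 12 of the 35 CpGs and 155 reads. EtOH-exposed embryos lay at 28.8% at the lowest, 38.8% at the median and 55.7% at the highest, with 0 below all controls and 1 above. The means were 45.4% ± 13.8 (n = 6) and 41.4% ± 9.31 (n = 16), a difference of −4.0 points with a 95% interval of −14.6 to 6.65 (two-sided exact permutation test, p = 0.439, adjusted p = 0.592). Without control 6 the difference was −9.37 points with p = 0.0464 in the same exact test. Libraries in the controls' range differed by 4.56 points (exact permutation test, p = 0.540), or −0.799 points without control 6, and the means below and above it were 32.6 and 39.0%.

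The 3 fragments of Plagl1 lie within 300 bp and ran apart in some embryos. Fragment 1 (chr10:13090813-13090886) was at 49.4, 46.4, 63.4, 43.8 and 48.6% in control embryos 1 to 5. In EtOH-exposed embryos it was 8.79% at the lowest, 30.2% at the median and 55.6% at the highest, with 12 of 16 below all controls. The means were 50.3% ± 7.64 (n = 5) and 31.8% ± 15.4 (n = 16), a difference of −18.5 points (two-sided exact permutation test, p = 0.0195, adjusted p = 0.286), and −6.57 points in the libraries of the controls' range with p = 0.287 in the same exact test. Fragment 2 (chr10:13090887-13090979), directly next to it, differed by −5.36 points and fragment 3 by −1.87 points (exact permutation tests, p = 0.423 and 0.788). In the libraries of the controls' range these were 6.74 and 1.14 points, with 0.598 for fragment 2 without control 6 and −1.84 for fragment 3 without EtOH-exposed embryo 16.

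Fragment 3 of Plagl1 was at 57.2, 59.6 and 63.7% in EtOH-exposed embryos 4, 5 and 6, above all controls (37.8 to 52.8%). It was also above them in embryos 11, 15 and 16, with libraries in the controls' range, at 64.3, 57.3 and 64.4%. In embryos 4, 5 and 6, fragment 1 was at 9.73, 26.4 and 13.3%, below all controls. In embryo 6 the fragments thus lay 50.3 points apart at a distance of 153 bp, while in controls fragment 3 minus fragment 1 ran from −16.8 to 6.45 points. Over all embryos this contrast was −4.88 points ± 9.16 (n = 5) in controls and 11.8 points ± 21.8 (n = 16) in EtOH-exposed embryos (two-sided exact permutation test, p = 0.117, adjusted p = 0.462). The difference was 7.71 points in the libraries of the controls' range, 11.2 in those below and 48.5 in those above, and the first was 2.39 without EtOH-exposed embryo 11.

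**Figure D4:**
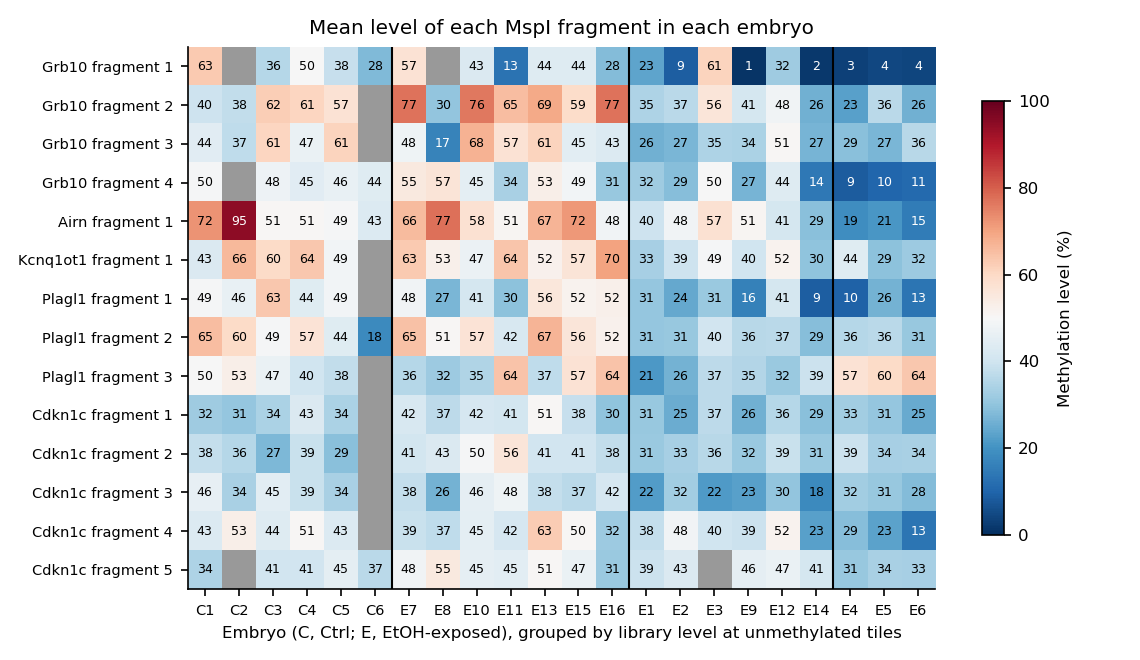
Methylation level (%, number and colour) of each MspI fragment near the start sites in each embryo, with columns for controls and for EtOH-exposed embryos whose library level at unmethylated tiles lay in the controls' range, below it and above it, and grey where no value was measured. Low values at Grb10 fragment 1 (0.846 to 4.47%) are in embryos 4, 5, 6, 9 and 14, and Plagl1 fragment 3 is higher than in all controls in embryos 4, 5, 6, 11, 15 and 16.

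The low values recurred in the same embryos. EtOH-exposed embryos 1, 5, 6 and 14 lay below all controls in 4 of the 5 regions, each time in Grb10, Airn, Kcnq1ot1 and Cdkn1c, and embryos 4 and 9 in 3. Embryos 7, 8, 10, 11, 13, 15 and 16, the ones with libraries in the controls' range at unmethylated tiles, lay below all controls in 0 of 5. Embryos 4, 5, 6 and 14 also had the 4 lowest relative coverages of methylated CpGs, −2.18 to −2.01 on the log2 scale, whereas embryo 1 was at −0.18 and embryo 8, in the controls' range for all 5 regions, at −1.52. Embryo 11 was at −0.80, and embryos 8 and 11 thus lay below all controls in this coverage. The part of these library measures in the levels was not tested.

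**Figure D5:**
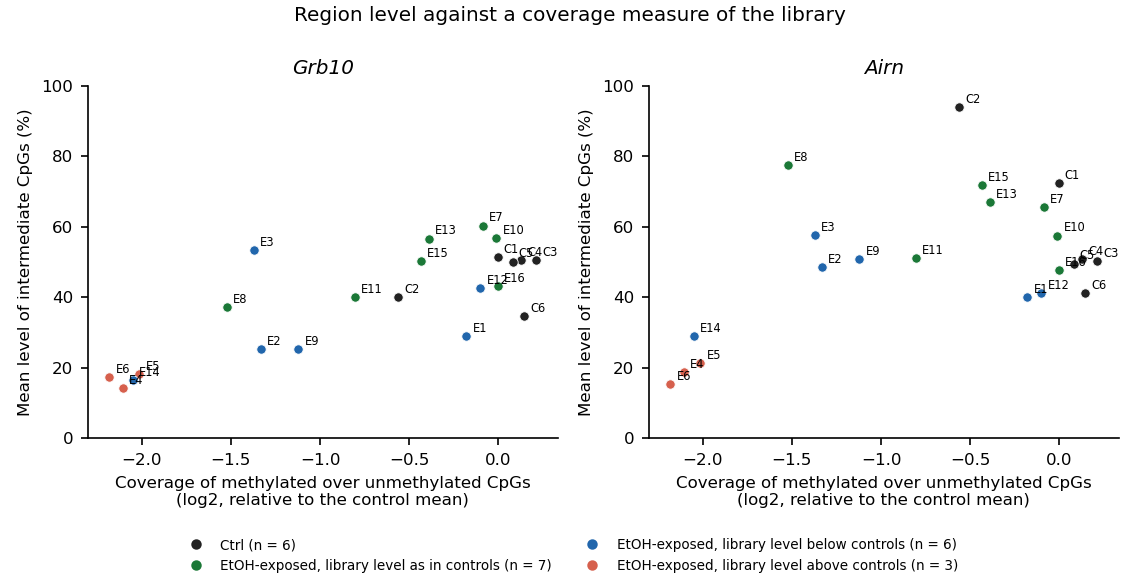
Mean level (%) of the intermediate CpGs at Grb10 and Airn against the coverage of methylated over unmethylated CpGs in each library (log2, relative to the control mean), 1 labelled point per embryo (C, control; E, EtOH-exposed). EtOH-exposed embryos 4, 5, 6 and 14, farthest to the left, have the 4 lowest levels of both regions, while EtOH-exposed embryos 1 and 8 lie away from that order.

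The distance of each embryo from the median of its group was compared as a measure of spread. At Grb10 it averaged 4.59 points in controls and 13.8 points in EtOH-exposed embryos (two-sided exact permutation test, p = 0.0191, adjusted p = 0.418), and at Cdkn1c 2.01 and 5.78 points (exact test, p = 0.038, adjusted p = 0.418). At an unadjusted p under 0.05, 10.6% of all genes had a larger spread in EtOH-exposed embryos and 0.469% a smaller one. Airn, Kcnq1ot1 and Plagl1 had mean distances of 12.7 and 14.8, 7.53 and 10.3, and 8.59 and 7.58 points in controls and EtOH-exposed embryos. Within the libraries of the controls' range, the excess at Grb10 was 3.04 points (p = 0.319, exact permutation test) and that at Cdkn1c 1.60 points (p = 0.256, exact permutation test). With 16 against 6 embryos and 3 library groups in 1 condition, spread between embryos and spread between libraries cannot be told apart.

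The regions were also set against the rest of their own gene in each embryo, for the 3 genes with at least 3 CpGs of both kinds. The difference between the conditions in intermediate minus remaining CpGs was −8.55 points at Grb10, −14.5 at Airn and 4.08 at Cdkn1c (two-sided exact permutation tests, p = 0.226, 0.128 and 0.060). Over all libraries 0 of 3 had p under 0.05, where 13.1% of 732 genes were lower and 3.28% higher in EtOH-exposed embryos. In the libraries of the controls' range, the differences were 3.78, −0.515 and 7.85 points (exact permutation tests, p = 0.431, 0.943 and 0.0035). That of Cdkn1c had an unadjusted p of 0.00253 to 0.00649 with 1 library left out at a time. That of Grb10 fell to 1.52 points without control 2, and that of Airn turned to 6.71 points without it. The difference at Cdkn1c depended on the processing. Over 34 alternatives of processing and sample choice it ran from −1.96 to 7.85 points, and 32 kept its sign. Over all libraries it turned negative with a higher read minimum and with a narrower range of control levels. At Grb10 the remaining 78 CpGs, 76 of them below 10% in controls, averaged 3.81% and 2.77% (exact permutation test, p = 0.189), and differed by −0.787 points in the libraries of the controls' range, or 0.248 there without control 2. The 2 remaining CpGs of Plagl1 averaged 7.20% and 4.87% (exact permutation test, p = 0.138), with −2.54 points in the libraries of the controls' range and −0.908 there without control 5. At the edges of the rule, the intermediate CpG of Cdkn1c nearest to 30% was at 30.2% in controls and 34.1% in EtOH-exposed embryos, and the CpG just outside it at 29.0 and 17.3%. For Grb10, the intermediate CpG nearest to 70% was at 66.2% in controls, and the nearest CpG outside the range at 5.25%.

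Neighbouring CpGs agreed within an embryo at the germline regions and scattered at Cdkn1c. The SD of the levels of the CpGs inside 1 fragment, averaged over fragments in each embryo, was 0.910 to 3.13 percentage points (median 1.79) over the Grb10, Airn, Kcnq1ot1 and Plagl1 fragments. Over the Cdkn1c fragments it was 5.41 to 11.1 points (median 8.28), higher than over the other 4 regions in 22 of 22 embryos. Independent sampling of reads at each CpG would give 2.51 to 5.69 points at the fragments of the 4 germline regions and 3.15 to 6.36 points at those of Cdkn1c. The fragments of the Kcnq1 body were not in this comparison, and their CpGs scattered as well. By fragment, the median SD was 5.28 to 9.82 points in the Kcnq1 body, beside 6.49 to 12.2 at Cdkn1c. Independent sampling would give 3.91 to 6.90 points at these Kcnq1 fragments. CpGs of a fragment are read on the same molecules, so their levels are not independent. The comparison was made after the levels had been seen.

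In 100 bp tiles, tested as in the methods of the study by a logistic model of the reads, 9 of 55 tiles of the 7 genes were called at q under 0.01 and a read-weighted difference of at least 10 percentage points, all lower in EtOH-exposed samples. Over all 114430 autosomal tiles, 1.08% were called lower and 0.0516% higher. The same test within the libraries of the controls' range called 11 of the 55 tiles, 2 lower and 9 higher, in Grb10, Igf2r, Airn, Kcnq1 and Cdkn1c, beside 0.788% of all tiles lower and 0.137% higher. Grb10 had 4 of 17 tiles called, Kcnq1 3 of 17, of which 1 was the only tile of Kcnq1ot1, and Plagl1 2 of 4. Cdkn1c with 11 tiles, Igf2r with 6 and Airn with 4, all 4 shared with Igf2r, had 0. The genes depended on the weighting: with unweighted means of the samples, 7 of the 55 tiles were called, 6 of them lower, in Grb10, Igf2r, Kcnq1 and Cdkn1c. Of all tiles, 1957 were then called, 1913 of them lower. Tiles at 30 to 70% in controls within 5 kb of the gene's own start site were called in 7 of 23 cases and the other tiles of the genes in 2 of 32, and of all 1565 such tiles of the genome 13.5% were called lower and 0.383% higher.

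The logistic model counts reads and not embryos, and no call was left when the spread between embryos entered the test. With overdispersion estimated for each tile (F test), 0 of the 55 tiles were called, 11 had an unadjusted p under 0.05 beside 5.77% of all tiles, and the smallest adjusted p of any tile in the genome was 0.0425. With limma on log2 ratios of methylated to unmethylated reads, 0 were called and 7 had an unadjusted p under 0.05 beside 4.45% of all tiles. With exact permutation tests of the embryos' tile levels, chosen after the tile values had been seen, 0 had an adjusted p under 0.05, 5 were lower and 1 was higher at an unadjusted p under 0.05, and over all tiles 3.78% were lower and 0.696% higher.

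The largest called difference was at the Grb10 tile chr11:12025601-12025700 in fragment 1. Its read-weighted level was 40.9% in controls and 17.2% in EtOH-exposed samples, −23.7 points. With embryos weighted equally it was 41.4% ± 10.5 (n = 5) and 24.5% ± 21.3 (n = 15; exact permutation test, p = 0.11), with −3.03 points in the libraries of the controls' range. The Kcnq1 tile chr7:143389201-143389300, in fragment 5, was at 48.1 and 29.6% by reads, −18.5 points, and −15.3 points by embryos (exact permutation test, p = 0.0295, adjusted p = 1), and −15 points in the libraries of the controls' range. At the Kcnq1ot1 tile chr7:143295401-143295500, the read-weighted levels of 54.1 and 40.9% gave −13.2 points, and without control 2, at 66.3% against 42.8 to 47.3% in the other controls, the difference was −2.55 points and the tile was not called. By embryos in the libraries of the controls' range it was −1.37 points. At the Plagl1 tile chr10:13090801-13090900 the levels were 51.4 and 37.8%, −13.6 points, and within the libraries of the controls' range the read-weighted difference was −1.59 points. By embryos this tile differed by −9.07 points (exact permutation test, p = 0.168). In the libraries of the controls' range it differed by 2.99 points by embryos, in the other direction (exact permutation test, p = 0.671). The Cdkn1c tile with the smallest p, chr7:143459301-143459400 in intron 2, was at 17.8 and 10.6%, −7.14 points, and differed by −4.67 points by embryos in the libraries of the controls' range. The Airn tile was at 53.1 and 50.7%, −2.48 points, and at a read-weighted difference of 11.3 points in the other direction in the libraries of the controls' range.

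Other genes of the pathways were read from 3 lists, by the same calls of the logistic test. Of 15 neighbours in the imprinted clusters (such as Slc22a3 and Phlda2), 11 had tiles, and 1 of 50 tiles was called lower, in Tssc4. Among 18 genes of insulin and IGF signalling, 16 had tiles, and 2 of 172 tiles were called lower, both in Igf1r, the receptor for IGF1. Of 17 other genes with a germline imprint, 16 were found in the annotation and Nespas had no match by symbol. All 16 had tiles, and 41 of 99 tiles were called lower, in 15 genes. None of the tiles of the 3 lists was called higher. With overdispersion in the F test, 0 tiles were called in each of the 3 lists. Over all autosomal tiles 1.08% were called lower, and the shares of the neighbours and of the signalling list lie near that. Of the tiles at 30 to 70% in controls, 36 of 52 were called lower in the germline list, 2 of 6 in the signalling list and 0 of 6 in the neighbours. Of all 5429 autosomal tiles at this level, 15.5% were called, 817 of them lower and 26 higher.

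The genes whose intermediate CpGs varied most like the mean of the 5 regions over the 22 samples were ranked among 57 genes with at least 10 such CpGs and a value in every sample. They were Gnasas1 (Pearson r = 0.88 over 48 CpGs), Zrsr1 and Commd1 (0.86, from the same 30 CpGs), Neurl3 (0.83, 12 CpGs) and Nnat (0.83, 20 CpGs), where the median of all 57 was 0.62. Within the 16 EtOH-exposed embryos alone, r was 0.91 for Gnasas1 and 0.88 for Nnat. These values share their libraries and are a description.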

How the data were processed

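Libraries were made by digestion with MspI, size selection, bisulfite conversion and sequencing (rRRBS). Per the study's methods and submitters' processing notes, Trim Galore 0.3.3 removed adapters and BSMAP 2.90 aligned the reads to mm10 (GRCm38). The deposited counts are the reads over each CpG cytosine, strand by strand and not normalized. The deposited percent values are the shares of those reads that were methylated or unmethylated. Methylated reads were rebuilt as coverage multiplied by percent and rounded.

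Each strand needed at least 10 reads, and kept strands were added up. An embryo's level of a region was the unweighted mean over its CpGs, with at least 3 required, or all where a gene had fewer. Group means were compared by two-sided exact permutation (74613 splits of 6 in 22), with Benjamini–Hochberg adjustment over all genes tested, with intervals from inverting the test. Tiles of 100 bp with at least 2 CpGs were tested with a logistic likelihood-ratio test, as in MethylKit, with an F test for overdispersion and with limma 3.58.1 (offset 0.5). The logistic and F tests of tiles, the exact permutation test, the spread comparison and the replicate block were run on simulated data as well. Limma and the sign-flip permutation were not. Depth limits precision, and PCR duplicates could not be removed.

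The members, gene lists and library groups were chosen with earlier results of these data known. Every member was named, by its called tile with the largest difference (with no call, the tile of smallest p), and the 5 most alike genes. No sample or column was left out. Alternatives were other read minimums, CpG ranges, models and sample sets. Same-numbered controls and EtOH-exposed samples were checked for pairing over 39204 tiles. Python 3.11.15, numpy 2.4.6, scipy 1.17.1, pandas 2.3.3, matplotlib 3.10.9 and R 4.3.3 were used.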

Additional observations from a re-analysis of the deposited data

Results flagged for a closer look

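The control values of 31 regions and fragments were tested for a lone extreme value, and 5 had one, where chance gives about 1 in 20. Control 2 was at 8.99% at the remaining CpGs of Grb10, with the next control at 4.09%, and at 26.8% at the remaining CpGs of Kcnq1, with the next at 36.4%. It had values at 23 of the 78 CpGs of Grb10 and 50 of the 69 of Kcnq1, where control 6 had 75 and 42 and the other controls had all. Control 6 was at 77.3% at the remaining CpGs of Igf2r, with the next at 35.5%, and at 18.6% at the intermediate CpGs of Plagl1, with the next at 44.7%. Control 3 was at 63.4% at Plagl1 fragment 1, with the next at 49.4%. Control 6 was the library with the fewest calls, 68.1 M. Among the Igf2r tiles outside the Airn region, control 6 was at 98.5 and 92.7% and had no value at those with control means of 39.9 and 9.33%. At Kcnq1, control 2 had no value at tiles with control means of 89.6, 83.2, 82.8, 48.4 and 46.8%, and was at 92.6% at another. Whether the choice of CpGs with a value set these controls apart was not tested, nor was any other cause.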

How the results depend on the processing

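Of 703 values of the comparisons recomputed under alternatives, 617 were counted as unchanged. For differences this meant the same direction and the same side of the threshold. For the number of called tiles it meant a count near that of the pooled test, whatever the direction of the calls. The 11 tiles called within the libraries of the controls' range, 2 lower and 9 higher, were counted as unchanged in this way. Restricting the comparison to the libraries in the controls' range, with CpGs chosen again in them, reversed the intermediate CpGs of Grb10 (2.99 points), Airn (2.93), Kcnq1ot1 (2.43), Plagl1 (4.56) and Cdkn1c (5.02), intermediate minus remaining CpGs at Grb10 (3.78), the remaining CpGs of Kcnq1 (0.37), the spread at Airn (−4.13) and Kcnq1ot1 (−1.51) and the Airn tile (11.3). It brought below the threshold the remaining CpGs of Igf2r (−7.89) and Cdkn1c (−2.83) and the spread at Grb10 (3.04) and Cdkn1c (1.60), and past it the CpG of Kcnq1ot1 (−13) and intermediate minus remaining CpGs at Cdkn1c (7.85).

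At Cdkn1c, the intermediate CpGs gave 2.09 points with 5 reads. Its remaining CpGs gave −2.77 with 5 reads, −0.308 with 20 reads, −1.64 with a range of 40 to 60% and −3.41 within 2 kb. Intermediate minus remaining gave 5.06 by summed reads, 4.86 with 5 reads, −1.96 with 20 reads and −1.96 with 40 to 60%. Its spread gave 4.17 by summed reads, 0.789 with 5 reads and 3.68 with 20 reads. The spread at Plagl1 turned to 0.334 by summed reads, 2.18 with 5 reads, 2.12 with 20 reads and 1.16 with strands added first. The remaining CpGs of Igf2r, called on the unadjusted p, were not called with each CpG as its difference from the control mean (−2.28), with all 22 samples (−1.32, 1 CpG), 5 reads (−2.34), 20 reads (−3.34), strands added first (−3.09) or without CCGG sites (−1.07). Others past the threshold were the remaining CpGs of Kcnq1 by summed reads (−7.81), of Airn with 40 to 60% (−7.07), of Grb10 with 20 reads (−1.06; with all 22 samples 0.0117) and of Kcnq1ot1 with 5 reads (−11.8). The cause was not tested.

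The number of called tiles of the 7 genes was 0 with overdispersion, 0 with limma, 0 with exact tests, 2 at 20 points or more, 3 with all 22 samples and 14 with the replicate block. It was 7 with unweighted means (6 lower) and 13 with 5 reads (12 lower, with calls in all 7 genes). With 20 reads it was 6 (all lower), and with strands added first 11 (9 lower). Within the libraries of the controls' range it was 11, of which 9 were higher in EtOH-exposed samples, where all 9 of the pooled calls were lower. Numbers 1 to 6 did not pair the samples: same-numbered samples correlated at −0.139 to 0.173, and 2 of 6 controls correlated best with their own number. The block used EtOH-exposed samples 1 to 6 only, whose libraries all lay below or above the controls' range. With it, the intermediate CpGs of Cdkn1c gave −6.48 (exact sign-flip permutation, p = 0.0313, the smallest p that 6 pairs allow), the remaining CpGs of Igf2r −11.5 and the spread at Cdkn1c 1.54.

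Leaving out 1 sample at a time gave −9.37 to −1.98 points for the intermediate CpGs of Plagl1 and 3.31 to 4.91 for intermediate minus remaining at Cdkn1c. For remaining CpGs it gave −13 to −2.47 at Igf2r, −5.40 to −2.67 at Kcnq1, −11.2 to −7.50 at Kcnq1ot1 and −3.30 to −0.700 at Plagl1. For the spread it gave −0.322 to 8.32 at Airn, 3.28 to 4.45 at Cdkn1c and −1.76 to 3.96 at Plagl1, and for the called tiles 8 to 11.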
